A study of Mus musculus with 12 samples.

Results

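The cytosolic ribosomal protein genes were taken as the protein-coding genes whose symbols name a protein of the large subunit (Rpl, Rplp) or of the small subunit (Rps, Rpsa) of the cytosolic ribosome, followed by a number and at most one letter. The rule used names only and no measured value. It found 76 genes among the 35275 annotated genes of the count table, 46 of the large and 30 of the small subunit. Of these 76, 75 passed the filter on low counts. The remaining gene, Rpl24, held 84 counts over all libraries.

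Ribosomal proteins assemble with ribosomal RNA into the particle that translates every messenger RNA, and their messages are among the most abundant in growing cells. The proteins are needed in near equal numbers, and their genes are known to be expressed together. Many of their messages begin with a C followed by a run of C and T (the terminal oligopyrimidine, or TOP, motif), through which mTORC1 signalling controls their translation. Some free ribosomal proteins also act outside the ribosome, as when Rpl5 and Rpl11 bind the p53 regulator Mdm2.

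The study asked what the loss of Smad7, an inhibitory Smad induced by TGF-β, does in cardiac fibroblasts. Cells were isolated from hearts of Smad7 floxed mice on the C57BL/6 background, aged 12 weeks, and were infected at passage 2 for 48 hours with an adenovirus at 100 MOI. The 4 groups of 3 libraries each were unstimulated control, unstimulated Smad7-KO, TGF-β1–stimulated control and TGF-β1–stimulated Smad7-KO. Control cells carried the same floxed alleles, though the sample titles call them wild type. They received an adenovirus with GFP per the labels (an empty one per the methods), and Smad7-KO cells received an adenovirus with Cre. TGF-β1 was given at 10 ng/ml, for 2 hours in one label and 4 hours in another. Deletion was made in culture rather than in the animal, and nothing stated that the libraries of a group came from separate cultures. The p-values below therefore measure only the spread between these libraries, which may be technical.

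Libraries held 19056916 to 25371321 counts. Smad7 lay at 71.4, 74.6 and 77.2 CPM (counts scaled to a fixed library total) in the unstimulated control libraries and at 28.6, 28.4 and 31.1 in the unstimulated Smad7-KO libraries. After TGF-β1 it lay at 145, 150 and 142 in control and at 80.8, 70.0 and 79.5 in Smad7-KO libraries, so Smad7 messages remained in every library labelled Smad7-KO. Summed markers of fibroblasts (12 genes, led by Col3a1) reached 10942 to 14527 CPM, but those of macrophages (13 genes, led by Lyz2) exceeded them in every library. In unstimulated libraries the macrophage sum was 22311, 27136 and 16617 in control and 23852, 26130 and 26181 in Smad7-KO. Of 11 tested endothelial markers 8 were called lower in Smad7-KO, beside 13.7% of all tested genes. The endothelial sums were 618 to 658 CPM in control and 211 to 229 in Smad7-KO. Vwf was called higher (1.03, edgeR adjusted p = 0.0019), beside 12.1% of all tested genes. Fewer cells of a type and less RNA per cell cannot be told apart in such bulk samples, and the part of these cells in the values below was not tested.

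The first bases of the messages are shown because they can carry the TOP motif that many of these genes share. RefSeq start sites on GRCm38.p6 matched 56 members. The 30 bases around the start are given in transcript orientation, with an unbroken run of at least 8 C or T letters near the start in capitals. The first 7 genes held such a run, and the last pair, Rplp0 and Rpl5, did not.
Rpl15 (chr14:18270972-18271001, minus strand): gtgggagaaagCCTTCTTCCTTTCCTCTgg
Rpl13a (chr7:45128731-45128760, minus strand): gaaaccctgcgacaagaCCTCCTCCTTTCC
Rpl38 (chr11:114668565-114668594, plus strand): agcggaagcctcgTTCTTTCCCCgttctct
Rplp2 (chr7:141447636-141447665, plus strand): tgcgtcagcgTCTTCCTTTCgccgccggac
Rps6 (chr4:86857353-86857382, minus strand): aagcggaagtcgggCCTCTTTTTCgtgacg
Rps26 (chr10:128626492-128626521, minus strand): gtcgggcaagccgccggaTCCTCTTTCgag
Rpl39 (chrX:37085208-37085237, minus strand): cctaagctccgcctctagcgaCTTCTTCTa
Rplp0 (chr5:115559452-115559481, plus strand): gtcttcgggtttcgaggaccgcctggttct
Rpl5 (chr5:107900513-107900542, plus strand): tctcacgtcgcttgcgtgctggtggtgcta

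Of the matched members, 25 of 56 (44.6%) held a run, against 13.2% of 15740 other protein-coding genes. Only the strand in transcript orientation was searched, and a match is a description of letters, not a mapped start. RefSeq's first base was a C in 33.9% of the members and in 13.9% of the other genes.

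Ribosomal protein messages were abundant in all 4 groups, and their levels per length spanned a wide range. Dividing CPM by the deposited gene length in kilobases gives a level per length, and its median over the 76 members was 471. Comparing genes on it rests on the annotated length, which in 10 members was over 2 times the transcript length in GENCODE M21. Rplp1, an acidic protein of the stalk that recruits elongation factors, was highest at 2116. It was followed by Rps12 (1533), Rps26 (1189), Rplp0 (1104), Rpl10 (1015) and Rps2 (941), and 31 members stood among the 100 highest genes of the table on this scale. By CPM, which is not divided by length, 6 members stood among the 100 highest.

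The low end held genes whose reads may be shared with other genes, and genes with a long deposited length. Rpl24 was lowest at 0.459, and above it came Rpl23a (31.2), Rpl35 (35.7), Rpl30 (38.4), Rps15a (60.5) and Rpl35a (95.7). Exons of Rpl24, Rpl23a and Rpl35 overlapped another gene over 47.0%, 62.3% and 66.2% of their bases, so the counts of these 3 genes are uncertain. Across members a median of 16.0% of the 100-base stretches of a transcript also occurred in another gene. In Rps15a and Rpl35a, whose exons overlapped no other gene, the values were 2.45% and 3.39%. Their deposited lengths were 5130 and 2858 bases, and that of Rpl30 was 2412, which lowers a level per length. The 246 annotated ribosomal protein pseudogenes took at most 0.0214% of the counts of any library.

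The members were short. Their deposited gene length had a median of 929 bases (255 to 5130), against 2500.5 for all protein-coding genes. Genes of like length are therefore the yardstick below, namely the 3995 other tested protein-coding genes with lengths between the 10th and 90th percentile of the members.

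One unstimulated control library stood apart. Ribosomal protein messages made up 4.57%, 7.56% and 2.87% of all counts in unstimulated control libraries 1, 2 and 3. In the unstimulated Smad7-KO libraries the shares were 2.71%, 2.90% and 2.83%. The Wilson 95% interval of library 2, for counting error only, was 7.54% to 7.57%. Library 2 was the highest of all 12 libraries for each of the 75 tested members, and library 3 lay within the range of the knockouts.

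**Figure D1:**
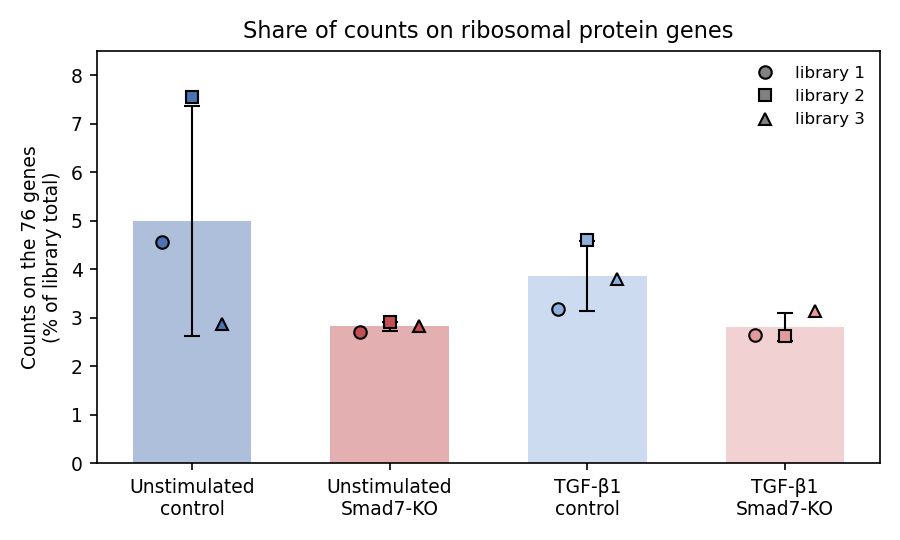
Share of all counts (percent, vertical axis) held by the 76 ribosomal protein genes in each of the 12 libraries (points), by group, with group mean and SD. The unstimulated control libraries spread from 2.87% to 7.56%, while the unstimulated Smad7-KO libraries lie between 2.71% and 2.90%.

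The groups differed in spread as well as in level. The share was 5.00% ± 2.37 (SD, n = 3) in unstimulated control and 2.82% ± 0.0961 in unstimulated Smad7-KO libraries. After TGF-β1 it was 3.86% ± 0.715 in control and 2.81% ± 0.293 in Smad7-KO libraries. Leaving out 1 library moved the unstimulated control mean between 3.72% and 6.06%. The geometric mean of the members' biological coefficients of variation was 0.414 in unstimulated control and 0.0429 in unstimulated Smad7-KO libraries.

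Other short genes moved with the members from library to library. In unstimulated control library 2 the members lay a median of 1.35 log2 units above their mean over all libraries, the genes of like length 0.57 above, and the longest 10% of genes 0.73 below it (−0.73). In library 3 these medians were −0.33, −0.12 and 0.21. Across the 12 libraries the members' median correlated with that of genes of like length at r = 0.995 and with that of the longest genes at r = −0.98. These values describe libraries that share one normalisation.

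**Figure D2:**
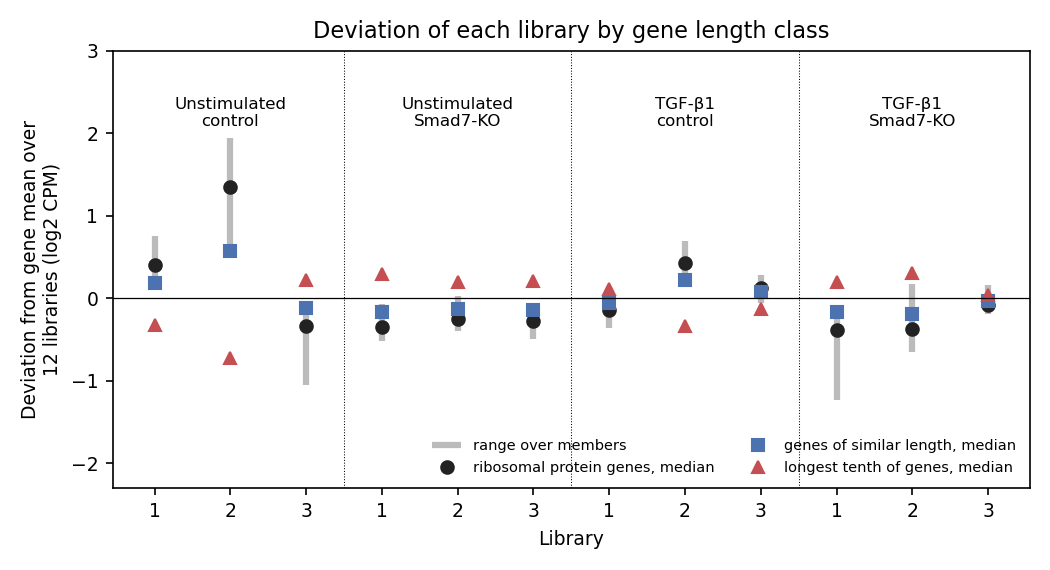
Median deviation of log2 CPM from each gene's mean over all 12 libraries (vertical axis) for the ribosomal protein genes, for other genes of like length and for the longest 10% of genes, by library. In unstimulated control library 2 the 3 medians are 1.35, 0.57 and −0.73, and in library 3 they are −0.33, −0.12 and 0.21.

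The members also moved with each other. A member's log2 CPM over the 12 libraries correlated with the other members' median deviation at a median r of 0.989, and 74 of 75 members exceeded 0.9. The exception was Rps29, a zinc-binding protein of the small subunit, at 0.867. Without unstimulated control library 2 the median was still 0.978. Genes of a common pathway, a common length class and a common set of libraries share these points, so no test was made.

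The first comparison asked how Smad7-KO cells differed from control cells without TGF-β1. The fitted fold change was negative for all 75 tested members, with a median of −0.94 on the log2 scale, and 32 members fell at an edgeR adjusted p of 0.05 or less. No member rose. Over all 15150 genes tested, 13.7% were called lower and 12.1% higher in this comparison, against 42.7% of the members called lower. Among genes of like length 25.2% were called lower, with a median of −0.42, and among the 202 of these that were also as highly expressed as the members 33.2% were, with a median of −0.34.

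The number of calls moved with the libraries. DESeq2 called 65 of 76 members lower, against 16.8% of the genes it tested. Without library 2, 0 of 76 members were called by edgeR (background 10.1%) and the median was −0.36. Without library 3, 75 of 76 were called lower (background 25.4%) and the median was −1.25. The adjusted p of the 32 called members lay between 0.029 and 0.0498, and leaving out unstimulated control library 1 or any unstimulated Smad7-KO library also left 0 called. A TGF-β1 library is in neither group compared here, but enters the shared scaling, the filter on low counts and the estimate of spread. Leaving out 1 of them left 11, 9 or 1 called for control libraries 1, 2 and 3 and 1 for each Smad7-KO library. The share over all genes is not given for these fits. In 16 members every Smad7-KO library lay below every control library, against 19.2% of all tested genes, and 15 of these 16 were among the 32.

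The stalk proteins Rplp0, Rplp1 and Rplp2, which bring elongation factors to the ribosome, all fell. Rplp0 (chr5:115559467-115563727, plus strand, GRCm38) lay at 1834, 2735 and 1270 CPM in control and at 1138, 1228 and 1219 in Smad7-KO libraries, so the groups did not overlap. Its log2 fold change was −0.70 ± 0.22 (SE, n = 3 libraries a group, edgeR adjusted p = 0.042), and −0.37 without control library 2 (edgeR adjusted p = 0.10). Rplp1 (chr9:61913284-61914538, minus strand) lay at 1435, 2583 and 806 in control and at 758, 804 and 762 in Smad7-KO libraries. Library 3 was thus the only control library near the knockouts. The log2 fold change of Rplp1 was −1.05 ± 0.33 (edgeR adjusted p = 0.039), and that of Rplp2 (chr7:141447370-141451585, plus strand) was −1.18 ± 0.40 (edgeR adjusted p = 0.049).

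In the small subunit 14 of 30 members fell, and the median over the subunit was −0.97. Rps2 (chr17:24718116-24721929, plus strand), which lines the entry of the messenger channel, had the lowest adjusted p of all members. It lay at 1295, 2220 and 872 CPM in control and at 726, 761 and 761 in Smad7-KO libraries, without overlap. Its log2 fold change was −0.96 ± 0.27 (edgeR adjusted p = 0.029), and −0.53 without control library 2 (edgeR adjusted p = 0.057). Rps26 (chr10:128624530-128626506, minus strand), which contacts the message at the exit side, lay at 605, 1432 and 385 in control and at 351, 368 and 344 in Smad7-KO libraries. The gap between control library 3 and the highest Smad7-KO library was small. The log2 fold change was −1.19 ± 0.37 (edgeR adjusted p = 0.037), and −0.48 without control library 2 (edgeR adjusted p = 0.090).

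Other small-subunit proteins that fell were Rpsa, the laminin receptor precursor (−0.94 ± 0.29, edgeR adjusted p = 0.039), and Rps19, a gene mutated in Diamond-Blackfan anaemia (−1.01 ± 0.34, edgeR adjusted p = 0.048). Rps12 and Rps20 had log2 fold changes of −1.13 ± 0.38 and −1.29 ± 0.41 (edgeR adjusted p = 0.047 and 0.042). Rps6, the substrate of the S6 kinases, was not called. It lay at 635, 1158 and 416 CPM in control and at 406, 439 and 449 in Smad7-KO libraries, which overlapped (−0.77, edgeR adjusted p = 0.061). Rps3, at the messenger entry, had −0.90 (edgeR adjusted p = 0.052) and the ubiquitin fusion gene Rps27a had −0.97 (edgeR adjusted p = 0.062).

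In the large subunit 18 of 45 members fell, and the median over the subunit was −0.90. Rpl13a (chr7:45125558-45136231, minus strand), part of the interferon-induced GAIT complex, lay at 1309, 2357 and 753 CPM in control and at 725, 781 and 751 in Smad7-KO libraries. Control library 3 lay within the range of the knockouts, so the groups overlapped. The log2 fold change was −0.97 ± 0.32 (edgeR adjusted p = 0.045), and 35.4% of the exon bases of Rpl13a overlap another gene. The partners of 5S ribosomal RNA, Rpl5 and Rpl11, were not called. Rpl5 lay at 644, 1077 and 448 CPM in control and at 432, 453 and 445 in Smad7-KO libraries, so control library 3 lay among the knockouts (−0.71, edgeR adjusted p = 0.053). Rpl11 had −0.98 (edgeR adjusted p = 0.052), and Rpl22 had −0.90 (edgeR adjusted p = 0.053).

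Some members with large negative values were not called. Rpl35 lay at 46.5, 111 and 14.5 CPM in control and at 23.3, 21.6 and 23.5 in Smad7-KO libraries, so control library 3 was below every knockout (−1.33, edgeR adjusted p = 0.079). Rpl38 and Rpl41, both very short proteins, had −1.29 and −1.27 (edgeR adjusted p = 0.074 and 0.067). At the other end were Rpl15 at −0.43, Rpl10 at −0.45 and Rpl3, of the peptidyl transferase centre, at −0.48 (edgeR adjusted p = 0.091 for Rpl3). X-linked members were no exception, since Rpl10 (edgeR adjusted p = 0.073), Rps4x (−0.84, 0.053), Rpl36a (−1.05, 0.056) and Rpl39 (−0.92, 0.078) all missed the threshold.

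**Figure D3:**
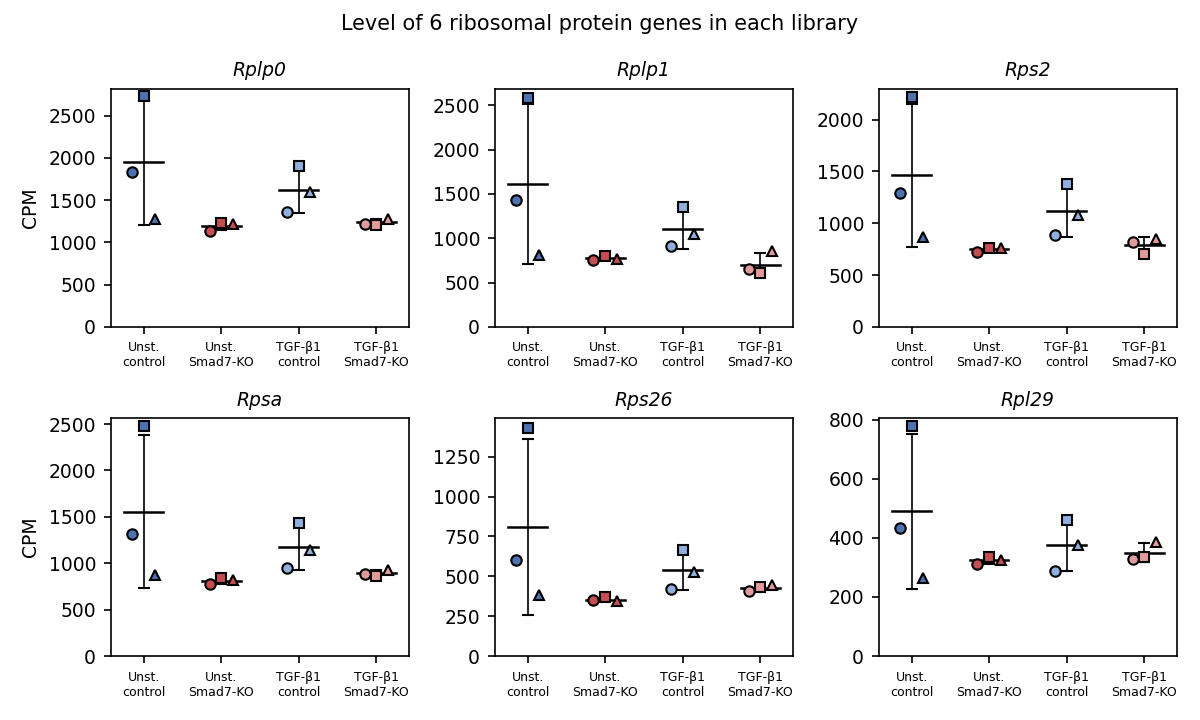
CPM (vertical axis) of Rplp0, Rplp1, Rps2, Rpsa, Rps26 and Rpl29 in each of the 12 libraries (points), by group, with group mean and SD. In each of the 6 genes unstimulated control library 2 is the highest point, with Rps2 at 2220 against 1295 and 872 in the other unstimulated control libraries.

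The pyrimidine run did not set members apart in this comparison. Members with a run had a median of −0.97 (11 of 25 called lower), and those without a run had −0.92 (11 of 30 called lower).

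Gene length moved with these fold changes. Over 13682 other protein-coding genes the log2 fold change correlated with log2 deposited gene length at r = 0.40, a description across genes that are not independent replicates. The median ran from −0.64 in the shortest 10% of the other genes to 0.47 in the longest 10%. The 53 members in that shortest class had a median of −0.96. Within the members the fold change hardly followed length (r = 0.19), with a median of −0.98 below 1000 bases (n = 43) and −0.94 at 2000 bases or more (n = 10).

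**Figure D4:**
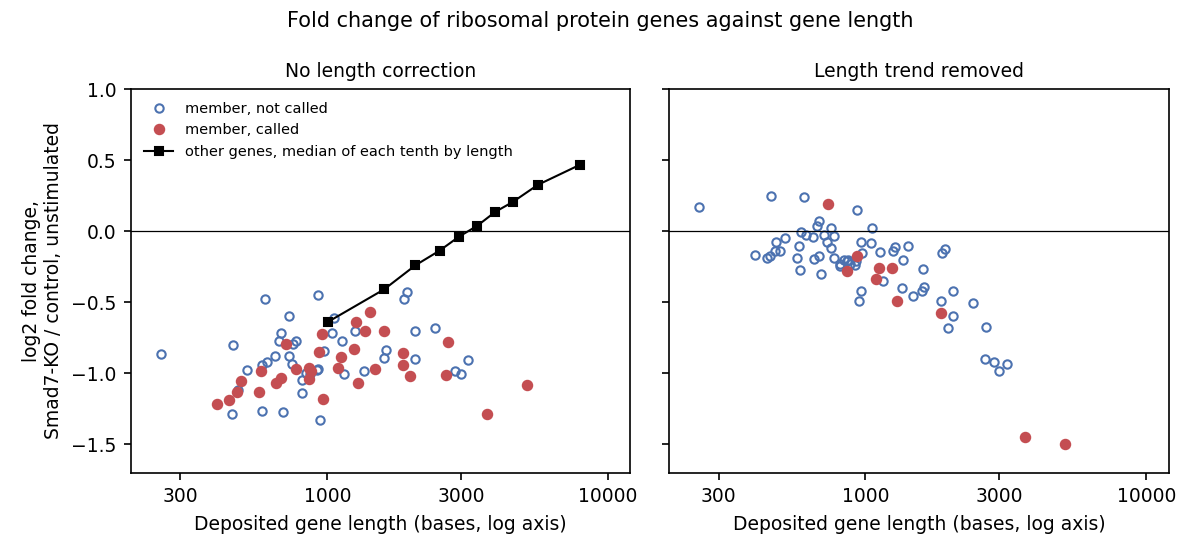
Log2 fold change, unstimulated Smad7-KO against control (vertical axis), by deposited gene length (horizontal axis, log scale) for other protein-coding genes and for the ribosomal protein genes. The other genes run from a median of −0.64 in their shortest 10% to 0.47 in their longest 10%, and the members lie at a median of −0.94.

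The comparison was repeated after each library's trend with gene length, estimated on the other protein-coding genes, had been removed. The members' median became −0.20, while that of genes of like length was −0.0016. Of the 75 tested members 9 fell, among them Rps20, Rps15a, Rps2, Rpsa, Rpl14 and Rpl12, against 15% of all genes called lower. Only Rpl29, a dispensable large-subunit protein, rose, by 0.19 (edgeR adjusted p = 0.047), against 14.4% of all genes called higher. Rps2 had −0.34 (edgeR adjusted p = 0.010), and stayed past the threshold in 12 of 12 fits that left out 1 library, between −0.40 and −0.27. Each of the other 9 members called lower or higher did so in 8 or fewer.

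Members with a long annotated length came out lowest after this removal, because their fold changes were like those of the short members. The median was −0.91 at 2000 bases or more and −0.15 below 1000 bases. The values of Rps15a (5130 bases) and Rps20 (3706 bases), −1.50 and −1.45, rest on those annotated lengths. Their transcript lengths in GENCODE M21 were the same, so a trend on transcript length is no separate check for these genes. With a trend on transcript length from GENCODE M21, chosen after seeing the data, 14 members were called lower (background 15.1%) and none higher, with a median of −0.19. Without control library 2, the fit with the deposited length called 3 members lower (background 14.5%) and 1 higher, with a median of −0.08.

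The second comparison set Smad7-KO against control after TGF-β1. No member was called by edgeR, none had an unadjusted p under 0.05, and DESeq2 and limma also called 0. All 75 fitted fold changes were negative, with a median of −0.43, from −0.78 (Rpl38) to −0.10 (Rpl29). Over all tested genes 7.23% were called lower and 5.72% higher, and genes of like length had a median of −0.22. In 21 members every Smad7-KO library lay below every control library, against 23% of all tested genes. Summed macrophage markers did not overlap between these groups either, at 16641 to 19457 CPM in control and 23055 to 26249 in Smad7-KO libraries, and 8 of 11 endothelial markers were called lower and 1 higher. Their part in the members' values was not tested.

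The number of calls differed with the libraries fitted. Fitted on its own 6 libraries, edgeR called 25 members lower (background 15%). Without unstimulated control library 2 it called 7 lower, among them Rps20, Rplp1, Rpl13a, Rpl34, Rps2 and Rpl14 (background 13.8%).

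The stalk proteins Rplp0 and Rplp1 each separated the groups, but Rplp2 did not. Rplp2 lay at 271, 470 and 351 CPM in TGF-β1–stimulated control and at 222, 211 and 311 in Smad7-KO libraries, which overlapped. Rplp1 lay at 910, 1356 and 1046 CPM in TGF-β1–stimulated control and at 647, 607 and 854 in Smad7-KO libraries, without overlap. Its log2 fold change was −0.65 ± 0.33 (edgeR adjusted p = 0.21), and −0.63 without unstimulated control library 2 (edgeR adjusted p = 0.034). Rplp0 lay at 1362, 1904 and 1597 in control and at 1221, 1209 and 1277 in Smad7-KO libraries, also without overlap (−0.39, edgeR adjusted p = 0.27). Rps2 lay at 890, 1377 and 1079 and at 818, 705 and 845, again without overlap (−0.50, edgeR adjusted p = 0.25). In Rplp0, Rplp1 and Rps2 control library 2 was the highest of its group, and without it the median over all members was −0.26.

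After removal of the length trend, 3 members fell and 1 rose, against 11.7% of all genes called lower and 11.6% called higher, and the members' median was −0.14. Rplp1 fell by 0.23 (edgeR adjusted p = 0.016), Rps16 by 0.22 (edgeR adjusted p = 0.039) and Rpl39, which lines the exit tunnel, by 0.33 (edgeR adjusted p = 0.049). Rpl29 rose by 0.28 ± 0.068 (edgeR adjusted p = 0.0092). Its CPM values were 288, 460 and 376 in control and 327, 336 and 387 in Smad7-KO libraries, which overlapped, so its rise was relative to genes of its length only. Among the 12 fits that left out 1 library Rpl29 was called in 11 and Rplp1 in 10, but Rps16 in 5 and Rpl39 in 4. With the trend on transcript length Rplp1, Rpl39 and Rpl29 were called and Rps16 was not (−0.33, edgeR adjusted p = 0.095). Without unstimulated control library 2 the fit with the deposited length called 10 members lower (background 16.9%) and 2 higher, Rpl29 and Rps25.

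The third comparison asked what TGF-β1 did in control cells. No member was called by edgeR, none had an unadjusted p under 0.05, and DESeq2 and limma called 0. The background was 3.33% called lower and 5.04% called higher. The median was −0.46, with the most negative value at −0.79 (Rpl35), against −0.20 for genes of like length. This value turned with 1 library, since the median was 0.09 without unstimulated control library 2, and 65 members were called lower (background 10.7%) with a median of −0.77 without library 3. After removal of the length trend edgeR called 0 members, against 7.06% of all genes called lower and 8.17% called higher, and the median was −0.03.

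The fourth comparison asked what TGF-β1 did in Smad7-KO cells, where the unstimulated libraries lay close together. No member was called by edgeR, none had an unadjusted p under 0.05, and DESeq2 and limma called 0, while edgeR on these 6 libraries alone called 2 higher. In the fit on all 12 libraries the background was 4.9% called lower and 5.33% called higher, and for the 6 libraries alone it is not given. The median was 0.02, with 41 values positive and 34 negative, from −0.39 (Rps29) to 0.27 (Rps26). In 8 members every TGF-β1 library lay above every unstimulated one, among them Rpl7, Rpl4, Rpl19, Rpsa, Rps7, Rps10 and Rps26, against 19% of all tested genes.

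Rps26 had the highest value in this comparison. It lay at 351, 368 and 344 CPM in unstimulated and at 408, 431 and 444 in TGF-β1–stimulated Smad7-KO libraries. With the length trend removed it rose by 0.35 ± 0.092 (edgeR adjusted p = 0.016), the only member called, against 9.1% of all genes called higher and 8.2% called lower. It was called in 8 of 12 fits that left out 1 library, and not with the trend on transcript length (0.30, edgeR adjusted p = 0.10). Rps29 lay at 162, 173 and 156 in unstimulated and at 71.9, 114 and 189 in stimulated libraries, so its negative value rested on the spread of the stimulated group.

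Whether the response to TGF-β1 differed between Smad7-KO and control cells was tested as an interaction. No member was called by edgeR, against a background of 0.0198%, none had an unadjusted p under 0.05, and DESeq2 and limma called 0. All 75 values were positive, from 0.08 (Rpl15) to 0.86 (Rps26), with a median of 0.48. Without unstimulated control library 2 the median was −0.043.

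**Figure D5:**
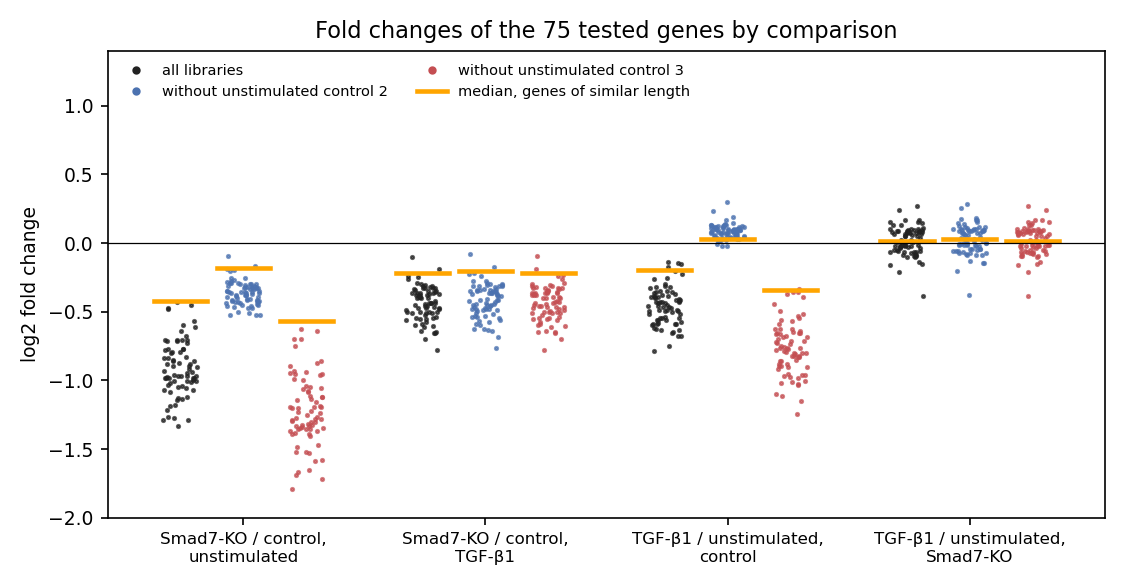
Log2 fold change (vertical axis) of each of the 75 tested ribosomal protein genes (points) in 4 comparisons, with all libraries and without unstimulated control library 2 or 3, beside the median of genes of like length (bars). With all libraries the members' medians are −0.94 and −0.43 for Smad7-KO against control (unstimulated and TGF-β1) and −0.46 and 0.02 for TGF-β1 against unstimulated cells (control and Smad7-KO).

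Genes that work with the ribosome were read from lists. Ribosomal protein genes whose symbols the rule left out had 2 of 12 tested members called lower in unstimulated Smad7-KO cells and none called higher, beside the 13.7% of all tested genes called lower. These were Rps3a1 (−0.92, edgeR adjusted p = 0.045) and Rps27l (−0.90, edgeR adjusted p = 0.045), and the median of −0.91 was close to that of the 75 genes. Fau, which encodes a ribosomal protein fused to a ubiquitin-like protein, had −1.12 (edgeR adjusted p = 0.064). After removal of the length trend the list had no call and a median of −0.10.

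Translation factors and the poly(A)-binding protein, whose messages carry the same start motif, had 7 of 22 members called lower and none higher. The share called lower over all tested genes was 13.7%, and the list's median was −0.56. Among them were the elongation factor subunit Eef1d (−1.08) and Pabpc1 (−0.35). After removal of the length trend 8 were lower and 1 higher, beside 15% and 14.4% of all tested genes, with a median of −0.16. Genes of ribosome biogenesis and RNA polymerase I had 10 of 58 called lower and none higher, beside the same 13.7% of all genes, with a median of −0.21, among them Imp3 (−1.13) and Bop1 (−0.43). After TGF-β1, Smad7-KO against control gave no call in the first of these lists nor among the translation factors, and 1 call in biogenesis (Bysl, −0.55). Over all tested genes 7.23% were called lower and 5.72% higher there.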

How the data were processed

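Poly(A) RNA-seq libraries (NEBNext Ultra) were used, 12 in all and 3 per group, grouped by the GEO labels. The deposited table held raw read counts per gene and FPKM values that the authors made with tools that the submitters' processing notes name as CASAVA, TopHat2 2.0, Cufflinks 2.1.1 and HTSeq 0.6.1, on mm10 and GRCm38.p6. The strand setting and the handling of reads that map to several places were not given in the sources used here. In all 35275 genes the deposited FPKM could be recomputed from the count, the length and the library's sum (relative tolerance 1e-06).

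Counts were tested in R 4.3.3 with edgeR 4.0.16 (quasi-likelihood F test, robust, TMM, minimum count 10) on all 12 libraries, with Benjamini-Hochberg adjustment over 15150 genes, called at 0.05 or less. Length trends were loess fits (span 0.3) of each library's log2 CPM deviations on log2 gene length over 13682 other protein-coding genes, used as offsets. Alternatives were DESeq2 1.42.0, limma 3.58.1 on log2(FPKM + 1) and log2(FPKM + 0.1), other scalings and filters, a replicate block, and each library left out. The fits were tested on simulated data. Gene overlap, shared 100-base stretches and transcript length came from GENCODE M21, start sites from RefSeq (GRCm38.p6). No protein sequence was used here, and values of some members are not reported here.

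The members and lists were chosen with earlier results of these data known. Named genes were a set fixed by role and the members with the most extreme or best separated values in each comparison, and the genes of the lists named for their values were chosen after those were seen. Leave-one-out fits with the length trend removed, the trend on transcript length, and libraries left out from outside a comparison were chosen after seeing the data.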

Additional observations from a re-analysis of the deposited data

How the results depend on the processing

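Of the results on single named genes, 5551 repeats under an alternative kept their direction and their side of the threshold, 164 passed it only under the alternative, 275 lost it and 24 turned. For Smad7-KO against control without TGF-β1, edgeR called 32 members (background 13.7% lower), DESeq2 65 (background 16.8% lower) and edgeR on only these 6 libraries 0. With no filter edgeR called 5, and limma called 6 (pseudocount 1) or 4 (pseudocount 0.1). With the length trend removed edgeR called 10 (background 15% lower and 14.4% higher). It called 11 with the trend of highly expressed genes and 14 with the trend on transcript length (background 15.1% lower). The medians with these 3 trends were −0.20, −0.18 and −0.19. Other scalings called 26 to 37. After TGF-β1 the same 3 trends gave 4, 3 and 3 calls and medians of −0.14, −0.13 and −0.13. The background was 11.7% lower and 11.6% higher for the first trend, and 11.7% each way for the third. On only the TGF-β1 libraries edgeR gave 25 (background 15% lower). For TGF-β1 in Smad7-KO cells, edgeR on only those libraries called 2, and the first 2 trends called 1 each (background 9.1% higher and 8.2% lower for the first). For the other fits named here the share over all genes is not given, so their counts are not read as results about the members.

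Leaving out 1 library gave 0 to 75 calls and medians of −1.25 to −0.36 for Smad7-KO without TGF-β1, and 0 to 7 calls and −0.55 to −0.26 after TGF-β1. For TGF-β1 it gave 0 to 65 calls and −0.77 to 0.09 in control cells, 0 calls and −0.10 to 0.08 in Smad7-KO cells, and for the interaction 0 calls and −0.043 to 0.80. The background called lower was 25.4% in the fit with 75 calls, 13.8% in that with 7 and 10.7% in that with 65. It is not given for each fit in this paragraph, so the ranges of calls describe the fits and not the members. With a length trend removed as well, the ranges for the same comparisons in the same order were 1 to 50 calls and −0.28 to −0.083, 1 to 15 and −0.17 to −0.10 (8 calls when unstimulated control library 3 was dropped, and medians of −0.11 and −0.16 when stimulated knockout library 1 or 3 was), 0 to 12 and −0.13 to 0.07, 0 to 5 and 0.01 to 0.05, and for the interaction 0 calls and −0.025 to 0.22. Without unstimulated control library 2 the interaction median was −0.024 (deposited length) or −0.025 (transcript length), and the median for Smad7-KO without TGF-β1 −0.083 or −0.090. The group shares moved between 3.72% and 6.06% (unstimulated control), 2.77% and 2.87% (unstimulated Smad7-KO), 3.49% and 4.20% (TGF-β1 control) and 2.64% and 2.90% (TGF-β1 Smad7-KO).

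Between Smad7-KO and control, same-numbered libraries correlated in their deviations from the group means at r = −0.045 to 0.083 (unstimulated) and −0.21 to 0.064 (TGF-β1). Between TGF-β1 and unstimulated libraries r was −0.017 to 0.054 in Smad7-KO cells and 0.012 to 0.52 in control cells, highest for libraries 2. Unstimulated control library 3 and TGF-β1 control library 1, of unlike number, reached 0.55. Whether replicate numbers pair the control samples is thus not settled by these values. With a replicate block 6 members were called without TGF-β1, also with the length trend removed (median −0.19). With block and length trend 2 were called after TGF-β1 (median −0.13) and 1 for TGF-β1 in Smad7-KO cells, and the block changed no other count of member calls. The share called over all genes is not given for the block fits.

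Rpl29 turned to a positive value with the trend removed, at 0.19 and 0.21 (highly expressed genes) without TGF-β1 and at 0.28, 0.29, 0.26 (transcript length) and 0.28 (with the replicate block) after it. With 1 library left out besides it was 0.16 to 0.22 without TGF-β1 (0.20 with transcript length and no unstimulated control library 2). After TGF-β1 it was 0.21 to 0.31 (0.25 with transcript length and no unstimulated control library 2 or 3), with 0.27 for each unstimulated Smad7-KO library 1 or 3 or control library 1 left out and 0.30 for TGF-β1 Smad7-KO library 3. Rps25 after TGF-β1 turned to 0.15 with the length trend removed and without unstimulated control library 2, and Rpl15 to 0.23 with the trend on transcript length and without library 3. The cause of these changes was not tested. With 3 libraries a group, the unstimulated control spread limits every comparison that uses that group.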

Other observations

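Other groups of mostly short genes also had members called lower in unstimulated Smad7-KO than in control cells, beside 13.7% of all tested genes and 25.2% of genes of like length to the ribosomal protein genes. Proteasome core subunits had 17 of 31 tested members called lower by edgeR, with a median log2 fold change of −0.66. Respiratory chain subunits had 16 of 77 (median −0.85) and mitochondrial ribosomal proteins 15 of 76 (median −0.63), and none of the 3 lists had a member called higher. With the length trend removed the medians were −0.14, −0.09 and −0.16, with 7, 8 and 10 called lower and 3 mitochondrial ribosomal proteins called higher, beside 15% of all genes called lower and 14.4% called higher. After TGF-β1 none of the 3 lists had a call between Smad7-KO and control cells.

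Regulators of ribosome production moved in both directions. Among 31 genes of mTOR and translation control 9 rose without TGF-β1, beside 12.1% of all tested genes called higher. They included the mTOR inhibitor Deptor (1.12), the stress-induced Sesn1 (0.47) and the translation repressor Eif4ebp3 (2.24). Another 2 fell, including Eif4ebp1 (−0.83), beside 13.7% of all tested genes. These 31 genes were long, with a median of 4513 bases. With the length trend removed 7 were called higher and 3 lower, beside 14.4% and 15% of all tested genes. The list's median went from 0.30 to 0.09. After TGF-β1 4 of these 31 genes were called higher in Smad7-KO cells and none lower, beside 5.72% and 7.23% of all tested genes. With the length trend removed 7 were called higher and 1 lower there, beside 11.6% and 11.7%. Myc, which drives ribosome production, fell by 0.63 without TGF-β1 (edgeR adjusted p = 0.022) and by 0.61 after it (edgeR adjusted p = 0.033). In the Myc network 4 of 13 genes were called higher and 1 lower without TGF-β1, beside 12.1% and 13.7% of all tested genes. Mga had 0.89 and Mxd1 had 0.68. With the length trend removed 5 were called higher and 1 lower. Of 10 genes of ribosomal stress and p53, Mdm4 rose (0.79) and Cdkn2a fell (−1.51) without TGF-β1, and none was called after it. With the length trend removed 2 were called higher and 2 lower, both without TGF-β1 and after it.

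Markers of other cells moved between the genotypes as well. Over all tested genes 12.1% were called higher and 13.7% lower without TGF-β1. There 6 of 13 macrophage markers were called higher and none lower, and 4 of 8 smooth muscle and pericyte markers lower. Of 5 cardiomyocyte markers 2 were called lower and none higher, though their median log2 fold change was 1.09. Of 3 lymphocyte and neutrophil markers 1 was called higher. Of 12 fibroblast markers 2 were called higher and 3 lower. With the length trend removed, beside 14.4% of all genes higher and 15% lower, 12 of 13 macrophage markers were called higher and none lower. In that fit 6 smooth muscle and pericyte, 1 cardiomyocyte and 7 fibroblast markers were called lower, and the cardiomyocyte median was 1.64. Called higher were 2 fibroblast markers and 1 lymphocyte and neutrophil marker. The part of these cells in the values of the ribosomal protein genes was not tested.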
